A study of Homo sapiens with 6 samples.

Results

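The G1 cyclins and their kinases are the machinery that carries a cell from G1 into S phase, and 9 genes of this group were followed by name among the 62438 genes of the count table. They were the D-type cyclins CCND1, CCND2 and CCND3, the E-type cyclins CCNE1 and CCNE2, the kinases CDK2, CDK4 and CDK6, and the phosphatase CDC25A. CCND1 was chosen because its drop after N6AMT1 knockdown had been among the clearest in these same libraries, so its difference is given as a description with no p-value, and the other 8 genes were taken for their role beside it. Human breast cancer cells labelled MDA-MB-453 had been transfected for 48 h at 10 nM with siRNA against N6AMT1 (si-N6AMT1, 3 libraries) or with scrambled siRNA (si-CN, 3 libraries). N6AMT1 is a methyltransferase, studied here as an enzyme for 6-methyladenine in DNA. No genetic change, drug or other agent separated the groups, and the labels do not give how many siRNA sequences were used. RNA came from triplicate cells, but no label states that these were separate cultures, so p-values measure the spread between these libraries, which may be technical.

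In textbook terms, D-type cyclins rise with growth signals and activate CDK4 and CDK6, which begin to phosphorylate the retinoblastoma protein RB1 and its relatives. RB1 holds E2F transcription factors back, and once they are released they drive the E-type cyclins and the genes of DNA replication. Cyclin E activates CDK2 to complete the step, CDC25A removes the phosphates that hold CDK2 inactive, and CCND1 is among the most often amplified cyclin genes in breast cancer.

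Library totals ran from 19739247 to 21289740 counts. N6AMT1 had 61, 72 and 60 counts in the si-N6AMT1 libraries and 136, 135 and 141 in the si-CN libraries, with no overlap and a log2 fold change of -1.10 (SE 0.119, FDR = 3.65e-07 by edgeR). The line in the label is known for a luminal profile, and the libraries went against it. PGR had 0 to 2 counts per library, SPDEF 1 to 6, ESR1 4 to 15 and KRT19 8 to 14, while the basal markers KRT5, KRT14, KRT17 and TP63, together with VIM and EGFR, all lay at 91.5 TPM or more in every library. All 8 genes of the basal and mesenchymal list exceeded 1 TPM, 4 of the 13 luminal genes were under 1 TPM, and the pattern was alike in all 6 libraries, so the cells are named here only by their label. Of 9 genes found from a list of immune, endothelial, stromal and glial markers, 5 were under 1 TPM. The stromal genes ACTA2 (27.1 to 31.9 TPM), COL1A1 (16.5 to 17.8 TPM) and COL3A1 (1.04 to 1.66 TPM) were above it. The summed level of that list was 230 to 238 TPM in si-CN and 299 to 317 TPM in si-N6AMT1, through the lysosomal gene CD68 (182 to 269 TPM over all libraries), while PTPRC had 1 to 3 counts per library and CD3E 0 to 2. The part of the CD68 difference in the results was not tested.

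All 9 genes passed the expression filter, and the plot of CPM by library shows them on axes that start at 0. CPM here is a count as a share of its library total, with the totals scaled by TMM to even out differences in composition. CCND1 and CCND2 stood clearly lower in si-N6AMT1, CDK4 and CDK2 were lower by a few percent, and the test called no difference for CCND3, CCNE1, CCNE2, CDK6 or CDC25A. Of the 8 genes other than CCND1, 3 were called lower at FDR under 0.05 and 0 higher, where 11.5% of the 17320 genes tested were called lower and 9.78% higher. The groups did not overlap for 6 of the 9 genes, 5 of them lower and 1 higher (34.9% of all genes tested did not overlap, in either direction). The median log2 fold change over the 9 genes was -0.07, against 0.0039 over all genes tested. Nothing is read from these shares, because the group was put together with the fall of CCND1 known.

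**Figure D1:**
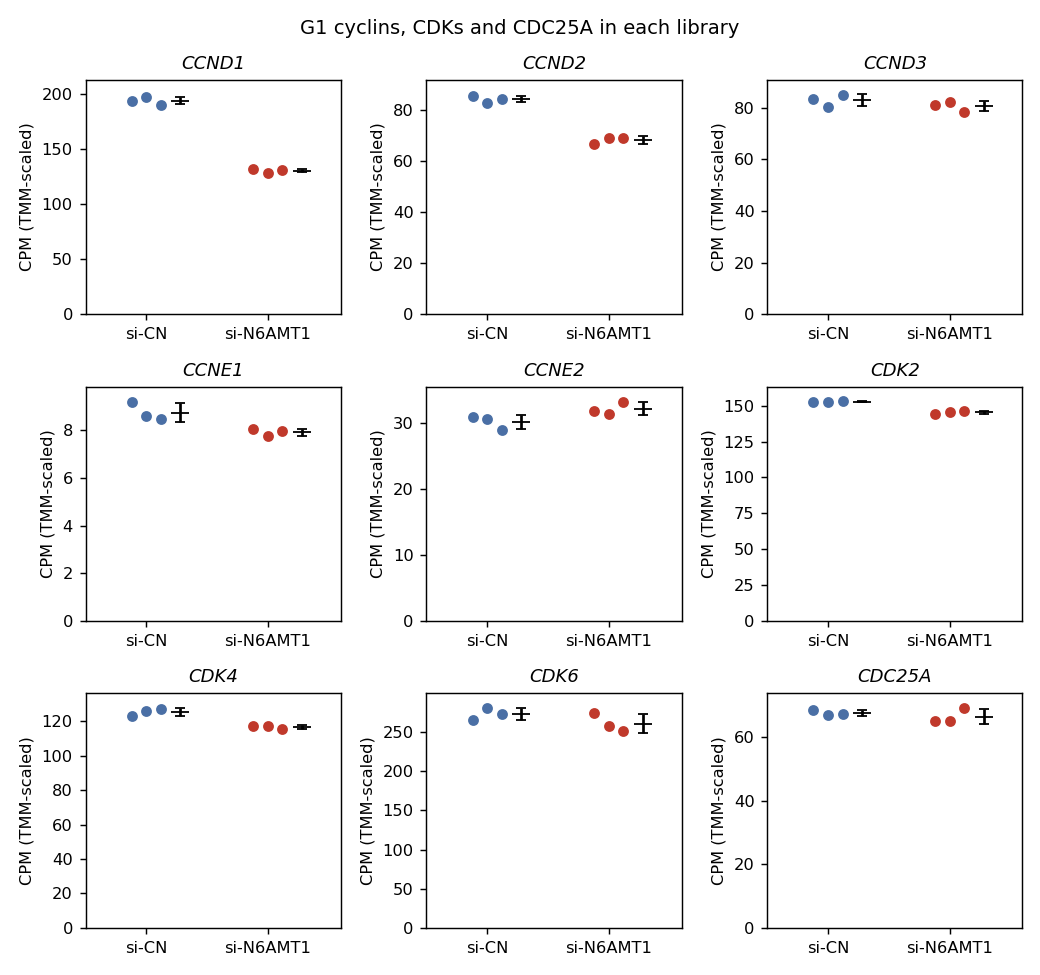
TMM-scaled CPM of the 9 genes in each library (y axes from 0), with si-CN in blue and si-N6AMT1 in red. Points are single libraries in the order of their replicate numbers, and the black marks beside them are the mean ± SD (n = 3). The groups stand furthest apart for CCND1 (190 to 196 against 128 to 131 CPM).

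Among the D-type cyclins, CCND1 (ENSG00000110092, GRCh37 chromosome 11, 69455924 to 69469242, plus strand) encodes cyclin D1. It measured 131, 128 and 131 CPM in the si-N6AMT1 libraries and 194, 196 and 190 CPM in the si-CN libraries. The 3 knockdown libraries lay within 3 CPM of each other, and the highest of them was far below the lowest control. The means were 130 ± 1.56 and 193 ± 3.22 CPM (SD, n = 3), a log2 fold change of -0.57 (SE 0.0252), or 32.7% less CCND1 mRNA. In the ranking of all genes tested, 209 had a lower fold change, and only 4 of these were more abundant than CCND1 in si-CN. In bulk RNA, fewer cells that express a gene and less RNA per cell cannot be told apart.

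Because CCND1 moved most, its 3′ UTR was searched, together with those of the other 8 genes, for TTCACAT and TCACATA. Both 7-base sequences had been picked in an earlier analysis of the same fold changes as more frequent in the 3′ UTRs of genes that fell, so a match adds no independent evidence. Only the transcribed strand was read, and the 2 sequences share 6 bases. The UTR of CCND1, 3192 bases in its reference transcript, held TTCACAT at positions 1998 and 2022 after the stop codon, 24 bases apart. Both stretches are shown, read 5′ to 3′ on the plus strand of GRCh37 with the matching 7 bases in capitals.
CCND1 chr11:69468037-69468066: gtttggaaataTTCACATcgcttctgtgta
CCND1 chr11:69468061-69468090: tgtgtatctctTTCACATtgtttgctgcta
Among 1831 genes with a 3′ UTR of similar length (0.8 to 1.25 times), 40.4% held at least 1 match to either sequence. At least 2 matches to either sequence were held by 14.6%, and 5.63% held TTCACAT at least 2 times.

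CDK6, the gene with the longest 3′ UTR of the group at 10219 bases, held 3 matches. They are shown for comparison, read on the minus strand.
CDK6 chr7:92243152-92243181: acctaacagggTCACATAtgttctctaatg
CDK6 chr7:92240515-92240544: agaatgcatgtTTCACATtgtgacagataa
CDK6 chr7:92236000-92236029: caggaagactgTCACATAcagtaagctttt
A UTR of that length seldom lacks one, since 78.4% of 232 genes of similar length held a match. The 3′ UTRs of the other 7 genes held neither sequence. Among them was CCND2, whose UTR of 5344 bases is longer than that of CCND1 and for which 55.6% of genes of similar length held a match. Over 13301 tested genes with an annotated 3′ UTR, the median length was 1322 bases and 22.2% held a match. A match describes the letters of the UTR and does not show that anything binds there.

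CCND2 (ENSG00000118971, chromosome 12, 4378937 to 4414519, plus strand) encodes cyclin D2. Its levels were 66.5, 69.1 and 69.1 CPM in si-N6AMT1 and 85.4, 82.9 and 84.3 CPM in si-CN, so all knockdown libraries were below all controls. The log2 fold change was -0.30 (SE 0.0319, called by edgeR at FDR under 0.05), or 18.9% less (95% interval 15.3% to 22.4%, from the SE). An overlapping protein-coding gene model on the same strand, ENSG00000285901, had 424 to 452 counts in si-CN and 296 to 338 in si-N6AMT1 and was called lower too (log2 fold change -0.45, FDR = 4.06e-05). Estimated counts can be divided between such models, so they were also added up. The sum was 83.6, 83.6 and 84.9 CPM in si-N6AMT1 and 108, 104 and 105 CPM in si-CN, a log2 ratio of the means of -0.33, close to the value for CCND2 alone.

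CCND3 (ENSG00000112576, chromosome 6, 41902672 to 42018095, minus strand) encodes cyclin D3. It showed 81.1, 82.1 and 78.4 CPM in si-N6AMT1 against 83.3, 80.4 and 85.0 CPM in si-CN, and the groups overlapped. The log2 fold change of -0.04 (SE 0.0324, FDR = 0.404) had a 95% interval from 7.09% lower to 1.46% higher, a range that holds neither the CCND1 nor the CCND2 estimate. The 3 cyclins of the family thus had estimates of -0.57, -0.30 and -0.04 on the log2 scale. The differences between the 3 genes were not tested.

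**Figure D2:**
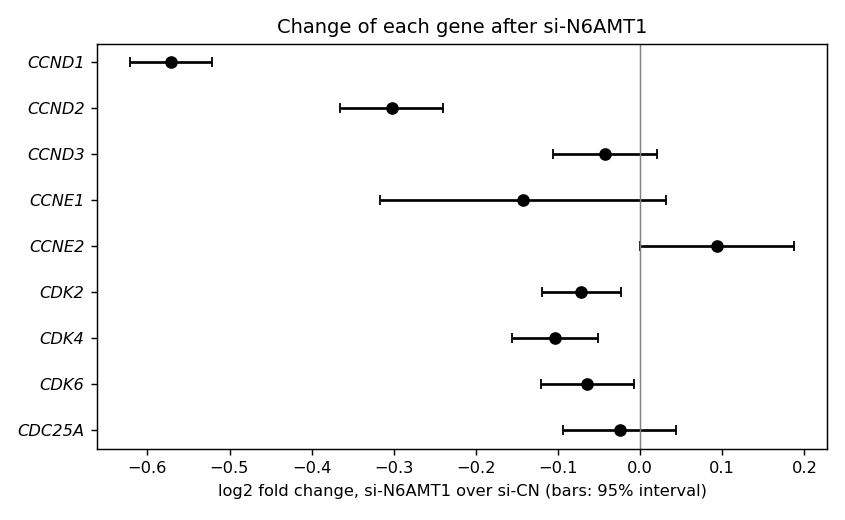
Log2 fold change of each gene in si-N6AMT1 over si-CN (x axis) from edgeR, with bars of the 95% interval and a grey line at 0. CCND1 and CCND2 lie furthest to the left at -0.57 and -0.30, while the bars of CCND3, CCNE1 and CDC25A cross 0. The bars of CDK6 and CCNE2 stop just short of 0, though neither gene was called. The bars come from the SE and are not adjusted for the number of genes tested, as the FDR is.

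Of the E-type cyclins, which activate CDK2, CCNE1 (ENSG00000105173, chromosome 19, 30302898 to 30315219, plus strand) was the scarcest gene of the group. The knockdown libraries held 158 to 163 counts and the controls 169 to 180, or 8.02, 7.74 and 7.95 against 9.17, 8.58 and 8.44 CPM. The groups did not overlap, but the difference of -0.14 (SE 0.0888) was not called (FDR = 0.292). At this depth the 95% interval ran from 19.7% lower to 2.19% higher, so a fall the size of that of CCND2 was within it.

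CCNE2 (ENSG00000175305, chromosome 8, 95891998 to 95908906, minus strand) was the only gene of the 9 that lay higher in every si-N6AMT1 library. It had 31.9, 31.3 and 33.3 CPM after knockdown and 30.9, 30.7 and 28.9 CPM in controls, with a gap smaller than the range inside either group. The log2 fold change was 0.09 (SE 0.0478, FDR = 0.184). Neither E-type cyclin passed the test.

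Of the kinases that D-type cyclins activate, CDK4 (ENSG00000135446, chromosome 12, 58141510 to 58149796, minus strand) measured 117, 118 and 115 CPM in si-N6AMT1 and 123, 126 and 127 CPM in si-CN. All knockdown libraries were below all controls, by a small margin. The log2 fold change was -0.10 (SE 0.0267, FDR = 0.0064), which is 6.97% less (95% interval 3.53% to 10.3%). The call was lost with DESeq2 (adjusted p = 0.0604) and without si-CN replicate 3 (-0.09, FDR = 0.0516 by edgeR).

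CDK6 (ENSG00000105810, chromosome 7, 92234235 to 92465887, minus strand), the close relative of CDK4, had 274, 257 and 251 CPM in si-N6AMT1 and 265, 280 and 273 CPM in si-CN. The highest knockdown library, replicate 1, lay above the lowest control, and the SD in si-N6AMT1 was 11.9 CPM against 7.63 CPM in si-CN. With all libraries the log2 fold change was -0.06 (SE 0.0288, FDR = 0.125). Without si-N6AMT1 replicate 1 it was -0.10 and was called (FDR = 0.0116 by edgeR). It was not called with any other library left out, and was -0.04 without si-N6AMT1 replicate 3 (FDR = 0.483 by edgeR). The estimate thus moved in both directions with the library left out.

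CDK2 (ENSG00000123374, chromosome 12, 56360565 to 56366573, plus strand) is the partner of cyclin E. It had 144, 146 and 146 CPM in si-N6AMT1 and 153, 153 and 153 CPM in si-CN, the tightest controls of the group (SD 0.354 CPM). The log2 fold change was -0.07 (SE 0.0245), or 4.85% less (95% interval 1.63% to 7.97%), with an FDR of 0.0395 close to the threshold. The call was lost when any single library was left out (FDR from 0.0732 to 0.121 by edgeR) and with DESeq2 (adjusted p = 0.180).

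CDC25A (ENSG00000164045, chromosome 3, 48198636 to 48229907, minus strand), the phosphatase that activates CDK2, measured 65.0, 64.9 and 69.1 CPM in si-N6AMT1 and 68.5, 67.0 and 67.1 CPM in si-CN. One knockdown library was the highest of all 6 and the others were the lowest. The log2 fold change was -0.03 (SE 0.0348, FDR = 0.678), with a 95% interval from 6.27% lower to 3.03% higher.

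To compare levels between genes, counts were divided by transcript length, here that of the reference transcript, to give an estimated TPM. On that length, in si-CN, CDK2 (152 ± 1.97 TPM, SD, n = 3) and CDK4 (149 ± 4.47 TPM) were the most abundant, and their ranges over libraries overlapped. They were followed by CCND1 (102 ± 1.94 TPM), CCND3 (91.0 ± 2.67), CDK6 (52.0 ± 2.0), CDC25A (39.1 ± 0.0492), CCND2 (28.9 ± 0.276), CCNE2 (25.1 ± 0.761) and CCNE1 (9.94 ± 0.319), with no overlap between neighbours in that order. CDK6, which had the highest CPM of the group, came below CCND3 on the reference transcript length. The order depended on the transcript taken for the length. With the median transcript CDK6 came first (363 ± 12.1 TPM) and CCND1 next (358 ± 6.06 TPM), with overlapping ranges, followed by CDK4 (168 ± 4.08 TPM), CCND3 (145 ± 4.05 TPM) and CDK2 (132 ± 0.971 TPM).

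After knockdown CCND1 stood at 68.2 ± 1.42 TPM, below CCND3 at 88.2 ± 2.27 TPM, so these 2 cyclins changed places. The 3 D-type cyclins together went from 221 ± 2.17 TPM in si-CN to 180 ± 2.46 TPM in si-N6AMT1, 18.8% less. CCND1 was 45.9% ± 0.988 of that sum in si-CN and 37.9% ± 0.664 in si-N6AMT1. The share of CCND3 went from 41.1% ± 0.929 to 49.1% ± 0.760, although its own level did not rise (91.0 and 88.2 TPM). The share of CCND2 stayed at 13.0% in both groups, while its level went from 28.9 to 23.3 TPM along with the smaller sum. The shares rest on which transcript gives the length. With the median transcript length of each gene CCND1 made up 69.2% in si-CN and 61.2% in si-N6AMT1, so it kept the first place there.

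**Figure D3:**
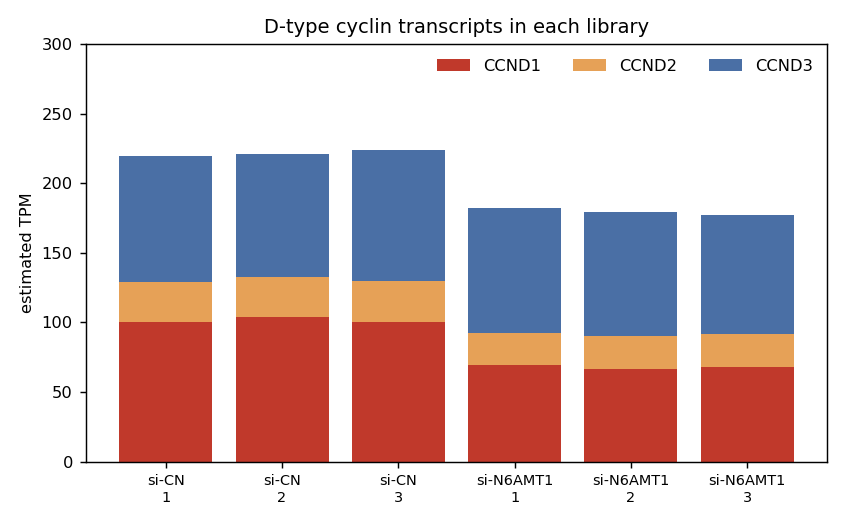
Estimated TPM of CCND1 (red), CCND2 (orange) and CCND3 (blue), stacked for each of the 6 libraries (y axis from 0). The stack is 219 to 224 TPM in the si-CN libraries and 177 to 182 TPM in the si-N6AMT1 libraries, and the red part shrinks most.

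The pool of D-type cyclin mRNA per CDK4 and CDK6 mRNA was 1.1 ± 0.0258 in si-CN and 0.954 ± 0.0102 in si-N6AMT1 (ratio of summed TPM, n = 3 each). CDK4 supplied 74.2% ± 0.403 of the kinase sum in si-CN and 73.7% ± 0.796 in si-N6AMT1, and these ranges overlapped. With the median transcript length CDK4 was the smaller part, 31.6% ± 0.454 in si-CN and 31.1% ± 0.870 in si-N6AMT1, and the ratio of D-type cyclins to these kinases was 0.974 ± 0.0244 and 0.781 ± 0.0201. The E-type cyclins together had 35 ± 0.969 TPM in si-CN and 35.7 ± 1.03 TPM in si-N6AMT1, with overlap. Within them CCNE2 provided 71.6% ± 0.610 in si-CN and 74.8% ± 0.488 after knockdown, where the groups did not overlap. All of these are descriptions of mRNA and were given no test.

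The genes that control the G1 kinases, or follow them, were counted in 7 lists that were chosen by role with earlier results of these data known. Of 147 listed genes 145 were tested, 46 were called lower and 18 higher. Each list is read beside the shares over all genes tested, 11.5% lower and 9.78% higher, and no set test was run.

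The CDK inhibitors, which bind and block these kinases, had 0 of 7 genes called lower (0 at an unadjusted p under 0.05 by edgeR, and 0 called by DESeq2) and 2 called higher. These were CDKN2B, the CDK4 and CDK6 inhibitor p15 (42.0 ± 2.41 CPM in si-CN and 48.7 ± 0.483 in si-N6AMT1, SD, n = 3, log2 fold change 0.21), and CDKN2A, which encodes p16 (56.5 ± 2.08 and 61.8 ± 2.40 CPM, log2 fold change 0.13). The call of CDKN2A was lost with DESeq2 (adjusted p = 0.124) and without si-N6AMT1 replicate 2, si-CN replicate 1 or si-CN replicate 3, which left 1 of the 7 higher. The 5 others lay between -0.08 and 0.07, among them CDKN1A and CDKN1B, named for their role as the p21 and p27 inhibitors, at 0.05 (FDR = 0.108) and -0.0037 (FDR = 0.956).

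Among 13 pocket proteins and E2F factors, 5 were called lower and 2 higher. The largest fall was that of E2F8, a repressor of the E2F family, at 15.2 ± 1.18 CPM in si-CN and 10.6 ± 0.979 in si-N6AMT1 (log2 fold change -0.52). The largest rise was that of E2F3, one of the activators, at 0.12. With DESeq2 (adjusted p = 0.128), without si-N6AMT1 replicate 3 and without si-CN replicate 3, 0 genes of the list were called higher. RB1, named after its values were seen as the best known substrate of CDK4 and CDK6, went from 110 ± 2.81 to 98.8 ± 0.601 CPM (log2 fold change -0.16, FDR = 0.00032).

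The list of G1/S genes known to be driven by E2F held the highest share of lower genes, 24 of 40 (60.0%), with 1 called higher. Its median log2 fold change was -0.14. CDC6, which loads the replicative helicase at origins, fell most, from 136 ± 1.16 to 98.7 ± 0.859 CPM (log2 fold change -0.46), and RFC4, a subunit of the clamp loader, was the gene that rose (0.14). By DESeq2, 19 of the 40 were called lower and 0 higher, and RFC4 was not called without si-N6AMT1 replicate 2 either. The list shares genes with proliferation lists already known to be lower in these data and is no separate evidence of that direction.

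The other cyclins and CDKs, 31 genes with roles later in the cycle or in transcription, had 5 genes called lower and 3 higher, with a median of 0.0084. The kinase gene CDK19 fell most (-0.24), and CCNF, which encodes a cyclin that acts as an F-box protein, rose most (0.16). DESeq2 called 2 lower and 0 higher, with adjusted p = 0.0862 for CDK19 and 0.167 for CCNF. There were 3 lower with either replicate 2 left out (si-N6AMT1 or si-CN), and the count higher was 1 without si-N6AMT1 replicate 1 or si-CN replicate 1 and 0 without si-CN replicate 3. A list of 8 genes held kinases and phosphatases that act on CDKs, and the chaperone gene CDC37. In it the phosphatase gene PPM1A was called lower (-0.11). CDC25B, the relative of CDC25A that acts at mitotic entry, was called higher (0.18). CDC25B went from 212 ± 4.91 to 240 ± 3.37 CPM and was called in all 13 alternative fits. PPM1A (FDR = 0.0473), whose groups overlapped, lost its call in 9 of the 13, among them DESeq2, limma-voom and each library left out but si-CN replicate 1.

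Among 20 genes for the turnover of cyclins D and E, 6 were called lower and 4 higher. FBXW7, the F-box protein that marks cyclin E for destruction, had the largest fall among those called (-0.23), and RBX1, the RING subunit of the cullin ligases, the largest rise (0.23). DESeq2 called 2 lower and 2 higher, with adjusted p = 0.0535 for FBXW7, whose call was also lost without si-CN replicate 2. There were 3 lower and 2 higher without si-CN replicate 1, and 2 higher without si-N6AMT1 replicate 3. Of 26 tested genes that act upstream of CCND1 transcription, 5 were called lower and 5 higher, and their median was -0.02. The count lower was 3 with total counts, DESeq2 or the replicate block, and without si-N6AMT1 replicate 2 or 3 or si-CN replicate 2 or 3. The coactivator gene YAP1 fell most, from 262 ± 3.88 to 219 ± 4.10 CPM (-0.26). FOS, a subunit of the AP-1 factor, rose most, from 172 ± 4.99 to 224 ± 1.20 CPM (0.38).

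**Figure D4:**
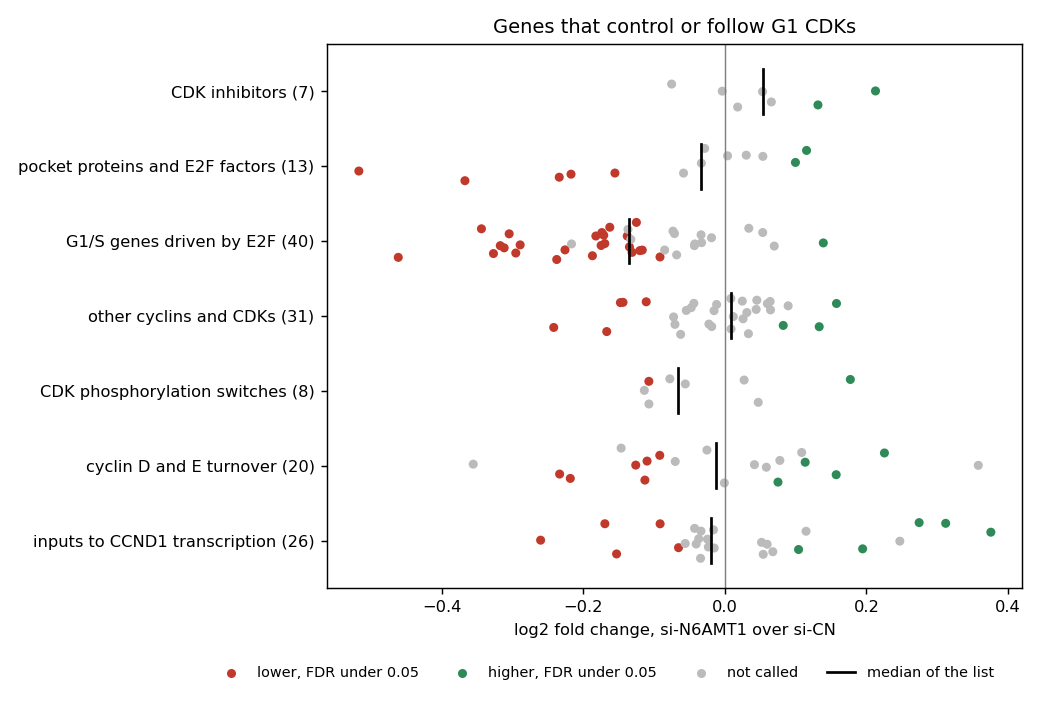
Log2 fold change in si-N6AMT1 over si-CN (x axis) of each tested gene in the 7 lists, with the number of genes tested in brackets. Red points were called lower and green points higher at FDR under 0.05 by edgeR, grey points were not called, and black lines are list medians. The E2F-driven G1/S genes have 24 red points and a median of -0.14.

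By Pearson correlation of log2 CPM over the 6 libraries, the 5 protein-coding genes most like CCND1 were SDF4, INTS2, PREPL, MXD1 and ATP2A2, with r of 0.999 for each. The 6 points fall into the 2 groups, so r mainly records the step between them, and 750 of 13361 protein-coding genes reached 0.95. Their log2 fold changes ran from -0.57 for ATP2A2, the calcium pump of the endoplasmic reticulum, to -0.11 for MXD1, a partner of MAX. No other member of the G1 group was among the 5.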

How the data were processed

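Messenger RNA was sequenced from 6 libraries of cells labelled MDA-MB-453. The authors trimmed reads with Trim Galore, estimated transcript counts with kallisto 0.46.0 on GENCODE transcripts (hg19) and added up the transcripts of a gene. The table the authors deposited therefore holds estimated counts, as whole numbers that were not normalized. The authors used a stranded library kit, but the strand setting of kallisto is not given in the sources used here. Opposite-strand overlaps (CCND1 with LTO1, CDK4 with TSPAN31 and MARCHF9, CCNE2 with INTS8) are therefore uncertain. The overlap matters most for CCNE2, since INTS8 had 1887 to 2053 counts per library, more than CCNE2 itself. Groups and replicate numbers came from the labels.

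Gene symbols, positions, transcript lengths and UTRs came from a GENCODE annotation of GRCh37, which matched 62149 of 62438 identifiers. Counts were tested with edgeR 4.0.16 (quasi-likelihood, TMM, filterByExpr with a minimum count of 10). FDR is the Benjamini-Hochberg value over 17320 genes, of which 1993 were called lower and 1694 higher at 0.05. The same fit was also run on simulated counts, whose spread was taken from the main fit, and the outcome is not given here. Library totals of 19739247 to 21289740 counts limit genes such as CCNE1. Within groups, pairs of libraries differed by more than sampling noise (chi-square per degree of freedom 1.36 to 1.77) and by less than pairs between groups (6.85 to 7.81), and none was counted as a duplicate. Alternatives were RLE factors, total counts, DESeq2 1.42.0, limma-voom 3.58.1, no filter, a TPM filter, a replicate block, each library left out and other transcript lengths.

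The 9 genes, the pathway lists and the 7-base sequences were chosen with earlier results of these data known. Named from each list were the genes called with the largest rise and fall, and every called gene where a list had at most 5. N6AMT1 and the 5 protein-coding genes with the highest r to CCND1 were named too. Some marker genes are not reported here.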

Additional observations from a re-analysis of the deposited data

How the results depend on the processing

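Over the 13 alternative fits, the log2 fold change of CCND1 ran from -0.58 to -0.56, that of CCND2 from -0.31 to -0.28 with the call kept in each, and no fold change of the 9 genes or N6AMT1 reversed. CDK2 was no longer called with total counts (-0.0602, FDR = 0.0913), DESeq2 (-0.0730, adjusted p = 0.180), no expression filter (-0.0747, FDR = 0.0747) or the replicate block (-0.0717, FDR = 0.0869), and ran from -0.0754 to -0.0646 with each library left out, losing the call each time. CDK4 was not called by DESeq2 (-0.105, adjusted p = 0.0604) and ran from -0.119 to -0.0908 with each library left out, losing the call without si-CN replicate 3, and CDK6 from -0.100 to -0.0371. DESeq2 called 1139 genes lower and 796 higher, and 30 pathway genes lower and 9 higher. With each library left out, 36 to 41 pathway genes were lower and 11 to 16 higher, the 11 without si-CN replicate 3. Of the CDK inhibitors 1 to 3 were called higher over the 13 fits, and of the E2F-driven genes 19 to 25 lower. DESeq2 gave N6AMT1 no adjusted p (log2 fold change -1.10). CCND1 made up 49.3% of D-type cyclin TPM in si-CN and 41.3% in si-N6AMT1 with the longest transcripts, and 69.2% and 61.2% with the median ones. Libraries of the same replicate number did not deviate together (r from -0.10 to -0.02), so the numbers were not taken as pairs, and the replicate block left 43 pathway genes lower and 16 higher. The causes of these changes were not tested.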

Other observations

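Near CCND1 and CCND2, tested genes within 500 kb were listed. Of 5 around CCND1, 1 was called, the overlapping opposite-strand gene LTO1, which was higher in si-N6AMT1 (11.8 CPM in si-CN and 13.7 in si-N6AMT1, log2 fold change 0.21, FDR = 0.0421 by edgeR). Its 231 to 278 counts per library were few beside those of CCND1, which were 2605 to 4031. MYEOV, 273 kb away, was at 82.3 and 83.9 CPM (log2 fold change 0.03, FDR = 0.601). Of 11 around CCND2, ENSG00000285901 was lower and TIGAR, 2.41 kb away and known as a regulator of glycolysis, was higher (11.9 and 14.6 CPM, log2 fold change 0.30, FDR = 0.0237). Opposite-strand partners were small beside CDK2 (PMEL, 65 to 81 counts) and larger beside CDK4 (TSPAN31, 468 to 516, and MARCHF9, 407 to 467) and CCNE2 (INTS8, 1887 to 2053, and NDUFAF6, 242 to 312).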
